A study of Mus musculus with 2 samples.

Results

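Sap130 summits at genes of long non-coding RNAs (lncRNAs) in the embryonic mouse heart are described here. They came from chromatin immunoprecipitation and sequencing of C57BL/6 hearts at stage E12.5, with 1 library made with a rabbit antibody against Sap130 and 1 input DNA library made with no antibody. The labels name no allele, treatment or sex, do not state whether hearts were pooled, and give the purpose as finding the targets of Sap130. Members were the summits at most 1000 bp from the first or last base of an lncRNA gene in the RefSeq annotation of build GRCm38 and more than 1000 bp from the ends of every protein-coding gene. This gave 573 of 14881 summits on nuclear chromosomes (3.85%, Wilson 95% interval 3.55 to 4.17). There was no replicate and the sequencing depth is unknown, so no difference below has a test, and the intervals cover counting error only. The authors' peak score, a −log10 p or q value, grows with depth as well as with enrichment and serves here only to rank and filter summits of the list.

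Sap130 is a subunit of the Sin3 complex, a corepressor that carries the histone deacetylases Hdac1 and Hdac2 and sits at promoters of active as well as silent genes. lncRNAs are transcripts that encode no long protein. Some are processed into small nucleolar RNAs (snoRNAs, which guide the modification of ribosomal RNA) or microRNAs (which repress messenger RNAs), and many start next to a protein-coding promoter, on the opposite strand. RNA levels were not measured, so whether a given lncRNA is made in these hearts is not known from these data.

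Promoter windows of 6 lncRNA genes are shown for genes that the results below turn on. The highest summit of each gene scored above the median of 22.4 for all members, and the set was chosen with those scores known. The windows run from 250 bases before to 50 bases after the listed start, 5′ to 3′ along the lncRNA strand. They come from RefSeq (GRCm38.p6). Snhg15 (chr11:6528711-6529010, minus strand) and Dancr (chr5:74092810-74093109, plus strand) are snoRNA hosts with 2 of the highest scores. Oip5os1 (chr2:119594046-119594345, plus strand) and Crnde (chr8:92356071-92356370, minus strand) are the highest of the list of nuclear and growth lncRNAs. Mir22hg (chr11:75461289-75461588, plus strand) hosts miR-22, and 2700012I20Rik (chr9:57076000-57076299, minus strand) starts inside the Sin3a gene. Capitals mark exact matches, on either strand, to the 10 short motifs given further on.
Snhg15: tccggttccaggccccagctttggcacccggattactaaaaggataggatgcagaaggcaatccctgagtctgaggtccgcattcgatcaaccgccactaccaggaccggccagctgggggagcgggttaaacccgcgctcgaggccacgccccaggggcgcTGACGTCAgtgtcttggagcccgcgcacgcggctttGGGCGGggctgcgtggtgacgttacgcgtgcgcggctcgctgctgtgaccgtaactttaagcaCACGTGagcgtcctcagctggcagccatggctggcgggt
Dancr: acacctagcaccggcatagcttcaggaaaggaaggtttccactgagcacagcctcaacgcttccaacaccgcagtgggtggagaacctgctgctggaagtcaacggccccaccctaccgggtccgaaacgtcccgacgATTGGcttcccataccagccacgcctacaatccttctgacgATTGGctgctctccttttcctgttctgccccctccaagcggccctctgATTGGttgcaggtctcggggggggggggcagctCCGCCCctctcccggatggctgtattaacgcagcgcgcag
Oip5os1: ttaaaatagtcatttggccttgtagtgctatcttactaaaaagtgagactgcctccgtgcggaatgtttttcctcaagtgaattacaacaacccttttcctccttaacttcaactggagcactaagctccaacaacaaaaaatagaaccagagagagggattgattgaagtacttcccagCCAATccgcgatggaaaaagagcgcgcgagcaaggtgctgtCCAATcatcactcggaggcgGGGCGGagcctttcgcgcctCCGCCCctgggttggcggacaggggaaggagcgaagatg
Crnde: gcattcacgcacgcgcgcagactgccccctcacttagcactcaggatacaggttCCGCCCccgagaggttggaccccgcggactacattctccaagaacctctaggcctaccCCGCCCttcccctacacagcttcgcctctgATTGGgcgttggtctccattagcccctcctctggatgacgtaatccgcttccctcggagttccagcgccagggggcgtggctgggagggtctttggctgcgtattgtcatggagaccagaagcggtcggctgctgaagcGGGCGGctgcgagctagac
Mir22hg: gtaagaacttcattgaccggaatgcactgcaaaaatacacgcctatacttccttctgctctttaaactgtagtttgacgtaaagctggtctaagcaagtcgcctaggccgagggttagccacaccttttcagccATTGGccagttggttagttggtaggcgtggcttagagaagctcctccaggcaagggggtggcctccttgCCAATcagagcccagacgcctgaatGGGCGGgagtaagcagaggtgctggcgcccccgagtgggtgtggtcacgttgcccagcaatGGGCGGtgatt
2700012I20Rik: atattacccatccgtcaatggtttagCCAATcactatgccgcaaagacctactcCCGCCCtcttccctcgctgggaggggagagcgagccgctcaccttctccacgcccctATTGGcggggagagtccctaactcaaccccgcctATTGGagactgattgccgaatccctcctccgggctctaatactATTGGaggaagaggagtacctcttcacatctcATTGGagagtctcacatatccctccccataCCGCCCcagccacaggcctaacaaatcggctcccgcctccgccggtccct

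All 6 windows held a GC box (GGGCGG or CCGCCC), the letters known to bind Sp factors. Of all 416 lncRNA windows with a member summit, 55.8% did. The share was 48.5% in the 171 of them outside and more than 1000 bp from every protein-coding gene, which leave out 2700012I20Rik. Snhg15 also held a CRE (TGACGTCA) and an E-box (CACGTG), and 5 of the matches at 2700012I20Rik were to CCAAT, the NF-Y motif. The highest summit lay 163 bp past the listed start at Snhg15 (score 168) and 284 bp past it at Dancr (score 161). It lay 221 bp past at Oip5os1 (score 78.4), 159 bp at Crnde (score 69.2) and 200 bp at Mir22hg (score 69.7). Crnde and Mir22hg each also had a lower summit before the start, with scores of 16.4 and 13.5. At 2700012I20Rik the higher of its summits was 633 bp before the start (score 128), toward a listed start of Sin3a.

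The 573 summits reached 510 of 12639 lncRNA genes (4.04%, interval 3.71 to 4.39). Of these genes, 434 had 1 such summit, 69 had 2, 6 had 3 and 1 had 4, while 21 summits were in reach of 2 lncRNA genes. Without the condition on protein-coding genes, 1988 summits lay at an lncRNA boundary, and 1415 of them (71.2%, interval 69.1 to 73.1) were also within 1000 bp of a protein-coding boundary. Counted that way, 1644 lncRNA genes (13.0%) had a summit, against 48.4% of the 21779 protein-coding genes. Genes with a curated RefSeq transcript made up 275 of the 510 (53.9%, interval 49.6 to 58.2), against 3318 of all 12639 (26.3%). A summit of this kind was found at 8.29% of curated lncRNA genes (interval 7.40 to 9.28) and 2.52% of those known by prediction alone (interval 2.22 to 2.86).

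The summits at lncRNA genes had lower scores than the rest of the list. Their median was 22.4 (95% interval 19.5 to 25.1), with quartiles of 10.5 and 51.9 and a range of 2.54 to 313, against a median of 33.9 over the other nuclear summits. Of the 573, 207 (36.1%) were at or above the median score of all nuclear summits, 33.3, where the share over all summits was 50.0% by construction. The median was 40.4 for the 10937 summits at protein-coding boundaries, 18.8 for the 2914 elsewhere inside protein-coding genes and 12.1 for the 457 other summits outside them. The intervals of the median overlapped between the lncRNA summits and those elsewhere inside protein-coding genes (17.4 to 19.7), many of which lay by an internal start.

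Where a summit lay relative to protein-coding genes went with its score. Outside every protein-coding gene lay 226 (39.4%), with a median score of 16.3, and 58 of them (25.7%) reached the median of all summits. Inside a protein-coding gene, but within 1000 bp of a listed internal protein-coding start, lay 191 (33.3%), with a median of 40.5, and 106 of them (55.5%) reached it. A further 90 lay inside protein-coding genes with no start in reach (median 12.8), and 66 inside genes for which no start is listed (median 25.6). The higher scores were thus found where an lncRNA boundary and a listed internal protein-coding start shared the stretch. The same split held for summits inside protein-coding genes that were not at lncRNA genes: the 1406 by a listed start had a median of 30.7 and the 963 with none in reach a median of 10.4.

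**Figure D1:**
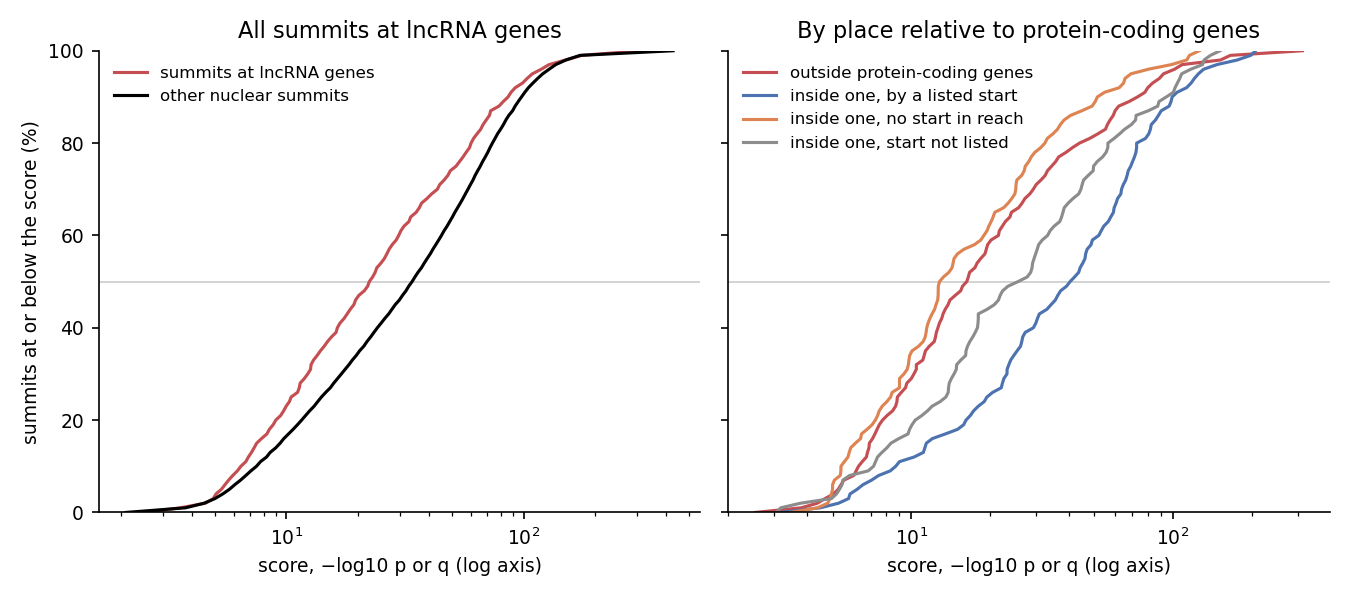
Cumulative share of summits (percent, vertical axis) by score (−log10 p or q, horizontal log axis). Left: the 573 summits at lncRNA genes and all other nuclear summits, with medians of 22.4 and 33.9. Right: the summits at lncRNA genes split by their place, where those by a listed protein-coding start (median 40.5) lie to the right of those outside protein-coding genes (median 16.3).

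Most summits were at the 5′ end of the lncRNA gene. The strand was listed for the lncRNA of 459 summits, of which 405 (88.2%, interval 85.0 to 90.9) were nearest to the 5′ end and 54 to the 3′ end, with median scores of 24.8 and 13.4. Outside protein-coding genes, 117 of 162 summits at a 5′ end (72.2%, interval 64.9 to 78.5) lay inside the lncRNA gene, a median of 207 bp past its first base. The bin from 100 to 200 bp past the start held 33 of these 162, more than any other bin of that size. Of the 9968 other summits within 1000 bp of a listed protein-coding start, 81.7% (interval 80.9 to 82.4) lay past the start, at a median of 200 bp. The lncRNA offsets were counted from the gene's outer end and the protein-coding ones from the nearest listed start.

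Beside a protein-coding start the picture was turned round. Of 157 such summits nearest to an lncRNA 5′ end, 43 (27.4%, interval 21.0 to 34.8) lay inside the lncRNA gene. The lncRNA was on the opposite strand from the nearby protein-coding start at 149 of the 157 (94.9%). At 100 of these the starts faced away from each other, a median of 169 bp apart, the layout of a bidirectional promoter. In 74 of those 100 the summit was past the protein-coding start, in 12 it was past the lncRNA start, and in 83 it was nearer to the protein-coding start. Counted this way, the summits of such pairs were mostly on the protein-coding side. The protein-coding start was the listed one nearest to the summit, and the lncRNA start was the gene's outer end. That choice favours nearness to the protein-coding start.

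**Figure D2:**
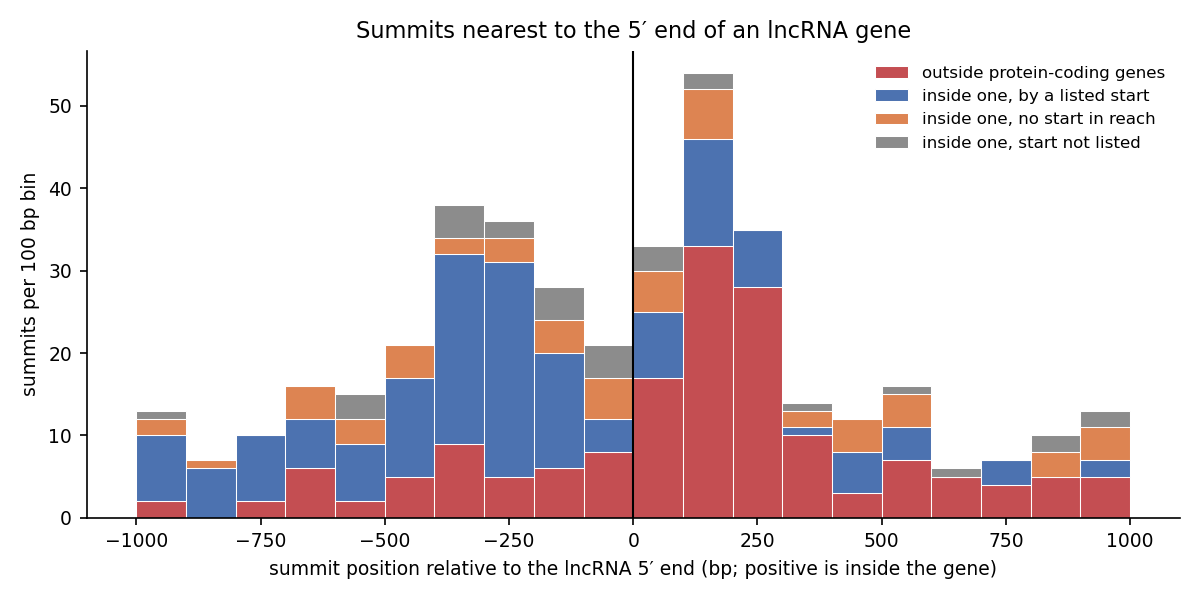
Number of summits per bin of 100 bp (vertical axis) by position relative to the 5′ end of the nearest lncRNA gene (bp, horizontal axis, positive inside the gene), for the 405 summits nearest to a 5′ end, stacked by place relative to protein-coding genes. Summits outside protein-coding genes gather 100 to 300 bp inside the lncRNA gene, and those by a listed protein-coding start 200 to 400 bp before it.

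The promoter windows of lncRNA genes with a summit were rich in CpG. Over the 171 listed lncRNA starts with a member summit that were outside protein-coding genes and more than 1000 bp from them, the observed over expected CpG ratio had a median of 0.681 (interval 0.608 to 0.736). Over 7108 lncRNA starts placed likewise but with no summit within 1000 bp it was 0.205 (0.200 to 0.210). A ratio of at least 0.6 was found in 102 of the 171 (59.6%, interval 52.2 to 66.7), against 326 of the 7108 (4.59%, interval 4.12 to 5.10) and 83.3% of 10715 protein-coding starts with a summit. GC content had a median of 58.7% at the 171 starts and 46.7% at the 7108. Starts of one gene overlap in part, and the 171 windows belong to 148 genes.

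CpG content also went with score. Of the 46 windows whose summit scored at or above the median of all summits, 41 (89.1%, interval 77.0 to 95.3) had a ratio of at least 0.6, against 61 of the 125 windows with a lower score (48.8%, interval 40.2 to 57.5). The lower-scoring lncRNA starts were thus a mixture of CpG-rich and CpG-poor windows.

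**Figure D3:**
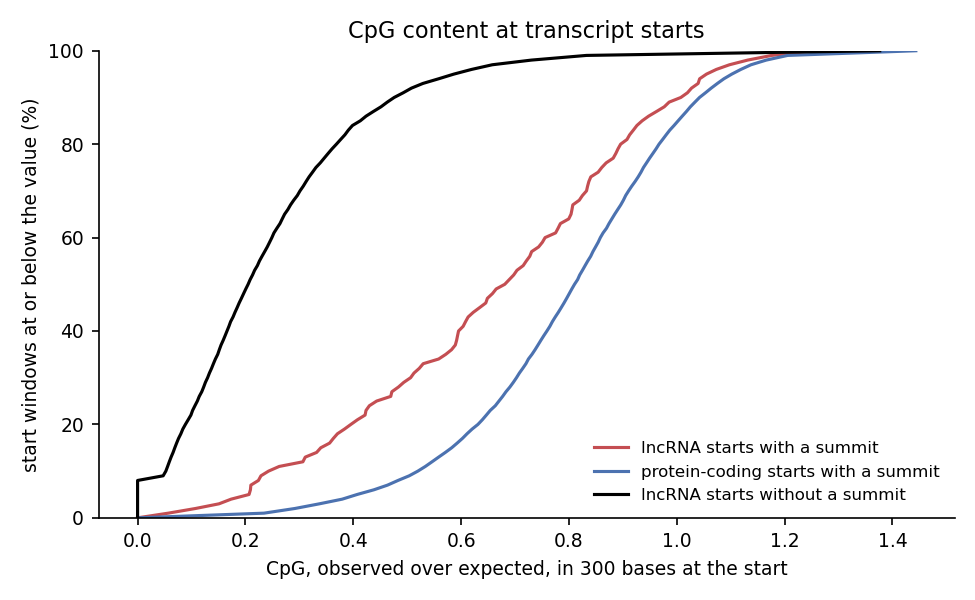
Cumulative share of start windows (percent, vertical axis) by observed over expected CpG ratio in 300 bases at the start (horizontal axis). The curve of the 171 lncRNA starts with a summit, outside protein-coding genes, has its median at 0.681, between those of protein-coding starts with a summit (0.810) and of lncRNA starts without one (0.205).

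The 10 motifs searched as exact letters on both strands were the E-box CACGTG, the NF-Y motif CCAAT, the box of the Sp factors GGGCGG, the Ets motif CCGGAAG, the NRF1 motif GCGCATGCG, the full cyclic AMP element (CRE) TGACGTCA, a partial form of that element TGACGCA, the YY1 motif ATGGCGG, the E2F motif TTTCCCGC and the TATA box TATAAA. None of these words contains another, though matches can overlap. The GC box stood in 83 of the 171 windows (48.5%, interval 41.2 to 56.0), against 8.24% of the 7108 and 35.7% of all 32850 listed windows. The E-box stood in 13.5% of the 171 (interval 9.13 to 19.4), against 5.50% of the 7108 and 7.15% of all, and the Ets letters in 11.1%, against 2.63% and 8.86%. CCAAT stood in 33.9% of the 171 (interval 27.2 to 41.3), against 37.9% and 37.4%, and TATAAA in 12.9% (interval 8.65 to 18.7), against 17.9% and 13.6%. At the 10715 protein-coding starts with a summit, the GC box stood in 71.4%, the E-box in 10.9% and the Ets letters in 19.8%. CCAAT stood there in 37.5% and TATAAA in 5.37%. Windows of the 171 and the 7108 also differed in GC content, as given above, and its part in these shares was not tested. The partial CRE stood in 7.60% of the 171, against 0.999% of the 7108 and 2.12% of all. The full CRE stood in 4.68%, against 0.689% and 1.79%, and YY1 in 4.09% (interval 2.00 to 8.21), against 1.03% and 4.05%. NRF1 and E2F stood in 2 of the 171 windows each, 1.17% (interval 0.321 to 4.16). Their shares were 0.267% and 0.211% of the 7108, and 1.75% and 1.07% of all. For YY1, NRF1 and E2F the interval held the share of all windows. At the protein-coding starts with a summit these shares were, in the same order, 3.99%, 3.56%, 9.12%, 4.27% and 2.33%.

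The highest score, 313, was at chr5:142367616, 416 bp past the 3′ end of Gm31068, a predicted lncRNA gene. It ranked at place 6 in the whole list. The nearest protein-coding gene was Foxk1, a forkhead factor known to recruit Sin3, which was 33881 bp away and had a summit at a boundary of its own. Gm31585, with a summit of score 187 at 891 bp inside its 5′ end, was likewise far from protein-coding genes, 49662 bp from Cstad. These were 2 of the 6 summits outside protein-coding genes among the 15 of highest score that are given here with their nearest gene.

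The other 4 of them were at Snhg15 (score 168, with Myo1g 7637 bp away), Dancr (score 161, with the deubiquitinase gene Usp46 24933 bp away), 4833417C18Rik (score 155, with B4galnt2 4068 bp away) and 1110038B12Rik (score 149, with the heat shock gene Hspa1b 4118 bp away). Snhg15, Dancr and 1110038B12Rik each hold a snoRNA gene, Snora26 in Dancr and Snord52 in 1110038B12Rik. All 4 summits were inside the lncRNA gene.

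Of the 15, 8 lay inside a protein-coding gene by a listed start. They were at Thap8 (score 207, in Wdr62, a spindle pole gene), 4930404I05Rik (score 199, in Synj1, a phosphoinositide phosphatase gene) and 2310068J16Rik (score 198, in Larp4, an RNA-binding protein gene). Gm33712 followed (score 178, in Phc2, a Polycomb gene), then Gm34655 (score 176, in Ulk4) and Gm6598 (score 154, in Tmem248). Gm31356 (score 145, in Gpam, which starts glycerolipid synthesis) and Gm17586 (score 135, in Mafg, a small Maf factor gene) were the last of them. The summits were between 125 and 342 bp from the protein-coding start in these genes, so the lncRNA and the protein-coding start cannot be told apart as the place bound. Thap8 is an lncRNA gene in the RefSeq table used. The remaining one, Gm5475 (score 151), lay in Slc11a2, an iron transporter gene with no listed start.

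The 4 lowest scores were 2.54 at Gm41301 (97040 bp from Grhl2), 3.05 at D130017N08Rik (in Usp42), 3.16 at Gm20554 (in Irx2) and 3.23 at Gm4221 (in Zfp608). All 4 lay just outside the lncRNA gene, between 2 and 184 bp from its boundary.

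**Figure D4:**
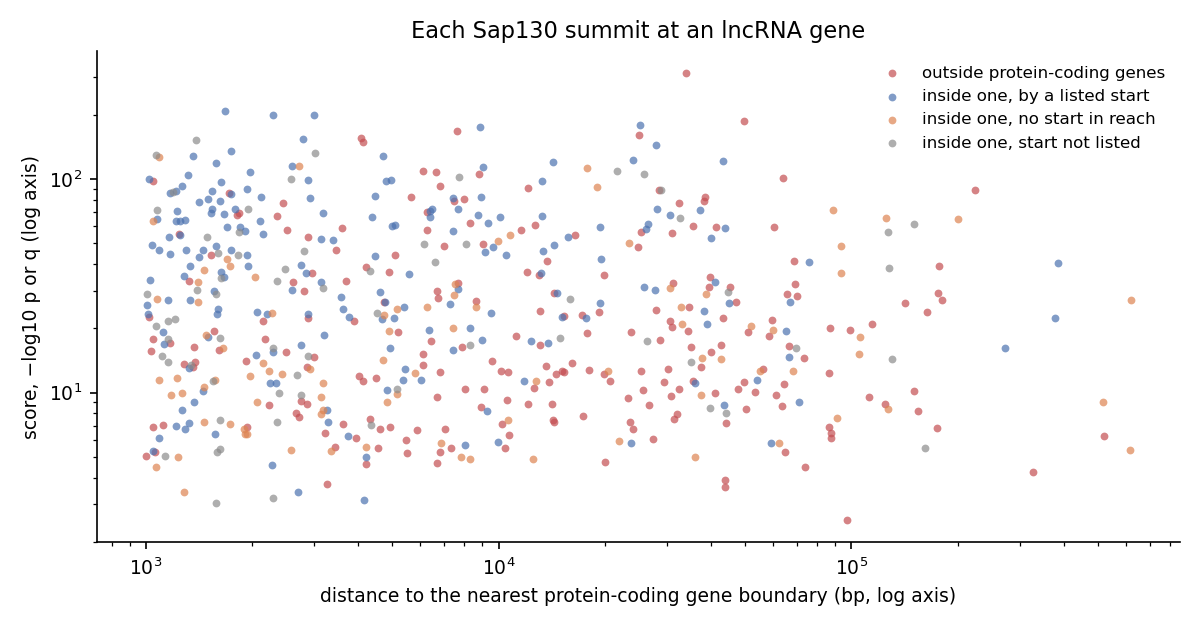
Score (−log10 p or q, vertical log axis) of each of the 573 summits against its distance from the nearest protein-coding gene boundary (bp, horizontal log axis), coloured by place. Distances run from 1002 to 618002 bp, high scores occur at short as well as long distances, and the highest is the summit of score 313 at 33881 bp.

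Most of the listed snoRNA host genes had a summit. Of 21 listed, 13 had a member summit, more than 1000 bp from protein-coding boundaries though in places inside a protein-coding gene. A further 6 had one shared with a protein-coding boundary, and 2, Snhg11 and Snhg14, had none at a boundary. Of all lncRNA genes, 4.04% had a member summit and 13.0% any summit at a boundary. The highest score per gene had a median of 58.9 over the 13, with Snhg15 (168), Dancr (161) and Snhg17 (89.1) at the top and Snhg4 (26.9) at the bottom. In each of the 13 the nearest summit was between 120 and 284 bp from a boundary. The others were Snhg20 (79.0), Snhg9 (78.6), Snhg3 (77.5), Snhg7 (58.9), Snhg5 (56.2), Epb41l4aos (55.3), Snhg12 (53.6), Snhg16 (46.3) and Snhg8 (43.9). All 13 were above the median of the summits at lncRNA genes, 22.4.

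The 6 shared cases were Snhg6, with Mcmdc2 (score 130), Zfas1, with Znfx1 (70.0), and Gas5, with Zbtb37 (61.6), then Snhg10, with Glrx5 (51.7), Snhg1, with Slc3a2 (33.8), and Snhg18, with Sema5a (7.85). They are not among the 573. By annotation alone, 18 of 108 lncRNA genes that hold a snoRNA gene had a member summit (16.7%, interval 10.8 to 24.8), and 35 of 108 (32.4%, interval 24.3 to 41.7) had any summit at a boundary. The 22 summits at the 18 genes had a median score of 57.6.

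Snhg9 had 3 member summits around its 435 bp, with scores of 78.6, 59.6 and 6.98. They also lay inside the annotated bounds of Rps2, a ribosomal protein gene, 170 to 644 bp from a listed Rps2 start. Snhg5 had summits of 56.2 and 47.9, and Snhg8 of 43.9 and 17.8, on both sides of the 5′ end.

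Of 11 listed microRNA host genes found in the table, 4 had a member summit and 7 had none at a boundary. Mir22hg had scores of 69.7 and 13.5, Dleu2 of 41.3 and 28.2, Mir9-3hg of 10.5 and 7.55, and Mir124a-1hg a single summit of 5.27. Mir22hg and Dleu2 host microRNAs made in many tissues, while miR-9 and miR-124 are best known from neurons. Mir17hg, the host of a growth-promoting cluster, had no summit within 1000 bp but had one of score 144 at 2055 bp, and the nearest to Mir99ahg was 57115 bp from a boundary.

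Over the annotation, 25 of 110 lncRNA genes that hold a microRNA gene had a member summit (22.7%, interval 15.9 to 31.4), and 38 of 110 (34.5%, interval 26.3 to 43.8) had any summit at a boundary. These shares overlapped in their intervals with those of genes that hold a snoRNA gene. The 29 member summits whose nearest lncRNA gene was of this kind had a median score of 13.5. They lay at 23 of the 25 genes, since each summit was given to its nearest lncRNA gene. C430049B03Rik on chromosome X, which holds Mir322 and Mir503, had a summit of score 35.6 at 236 bp inside a boundary. E130102H24Rik, which holds Mir101a, had one of score 59.4, 70 bp before its 5′ end. Both genes, and the sequences below, were picked after their values were seen. Mature microRNAs from Mir22hg, Dleu2 and C430049B03Rik, from RefSeq annotation of GRCm38.p6, are shown with the seed, bases 2 to 8, in capitals.
mmu-miR-22-3p: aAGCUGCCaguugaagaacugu
mmu-miR-15a-5p: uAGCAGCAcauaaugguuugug
mmu-miR-16-5p: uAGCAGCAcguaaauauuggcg
mmu-miR-322-5p: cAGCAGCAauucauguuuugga
mmu-miR-503-5p: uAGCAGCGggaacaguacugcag

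The seed AGCAGCA is shared by miR-15a and miR-16 of Dleu2 and by miR-322 of C430049B03Rik, and that of miR-503 is AGCAGCG. Members of this family restrain cell division, and in mouse the miR-15 family is known to act in the withdrawal of heart muscle cells from the cell cycle after birth. Summits were thus found at host genes of this seed family on chromosomes 14 and X.

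Of 12 listed nuclear and growth lncRNAs, 8 had a member summit, Tug1 shared one with Morc2a (score 85.7), and 3 had none at a boundary, among them Neat1 and Firre. Oip5os1, whose RNA triggers the destruction of miR-7, had the highest score (78.4). Crnde followed with 69.2 and 16.4, and its summits lay 1835 and 1371 bp from Irx5, an Iroquois homeobox gene of the heart. Lncpint (27.2), Norad, a sponge of Pumilio proteins (23.0), Tunar (21.0) and Pvt1, the neighbour of Myc (10.5), were lower. Malat1, an abundant RNA of nuclear speckles (7.95), and Rmst, known from neural cells (6.26), were lowest. The median of the 8 was 22.0, close to that of all 573.

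Imprinted and X inactivation lncRNAs had 4 of 10 with a member summit and 6 with none at a boundary. Jpx, an activator of Xist, had a score of 32.3, Kcnq1ot1, the paternally expressed RNA of the Kcnq1 domain, 14.3, Meg3 7.32 and Peg13 5.49. H19 and Rian had no summit within 1000 bp. Of 9 listed heart lncRNAs in the table, 1 had a member summit, Miat (12.8), and 2 shared one with a transcription factor gene: Hand2os1 with Hand2 (10.7) and Fendrr with Foxf1 (6.15). The other 6 had none at a boundary, among them Bvht and Mhrt, with the nearest summit 29761 and 41401 bp from a boundary. Among 13 lncRNA genes beside patterning homeobox genes, 2 had a member summit, one of them Pantr1 (17.2, 1172 bp from Pou3f3). Lhx1os shared one with Lhx1 (6.73), and 10, among them Hotair and Hottip, had none at a boundary. Sox2ot, also among the 10, held 3 summits deeper inside the gene. Of these, the one nearest to a Sox2ot boundary (score 5.98) lay 79 bp from a boundary of the protein-coding gene Sox2. All 3 groups had highest scores below the snoRNA hosts' median of 58.9.

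**Figure D5:**
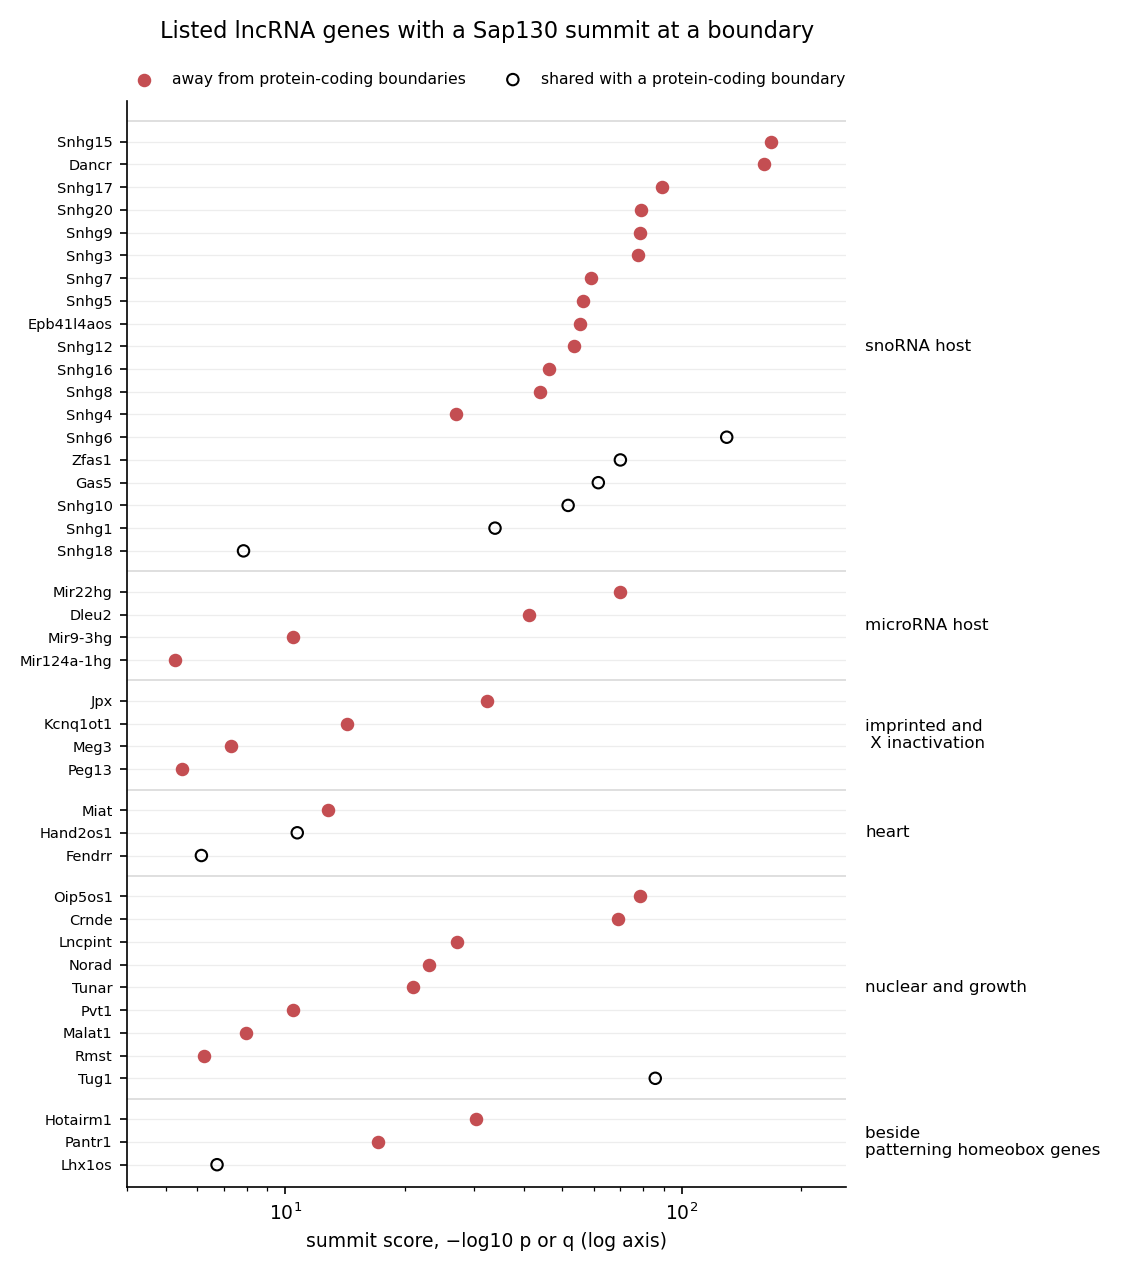
Score (−log10 p or q, horizontal log axis) of the highest summit at each listed lncRNA gene, by list. Filled points are summits away from protein-coding boundaries, with medians of 58.9 over the snoRNA hosts and 22.0 over the nuclear and growth lncRNAs, and open points are summits shared with a protein-coding boundary, which are not among the 573.

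The 573 summits had 483 different nearest protein-coding genes, at a median distance of 6285 bp (interval 4980 to 7461), against 3434 bp over the 3371 other summits more than 1000 bp from a protein-coding boundary. Of these genes, 248 (51.3%, interval 46.9 to 55.8) had a summit within 1000 bp of their own boundary, near the 48.4% of all protein-coding genes. The share was 69.0% (136 of 197) for summits outside protein-coding genes and 29.7% (49 of 165) for summits by a listed internal start. So most of the nearest protein-coding genes of lncRNA summits outside genes had a summit of their own. The like share for other summits outside protein-coding genes was not computed, so this is not shown to be particular to lncRNA genes. For those by an internal start, the rule bars the member summit itself from counting as a boundary summit of its gene. Neither the 29.7% nor the 51.3%, which includes these genes, therefore compares evenly with the 48.4%.

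Among 54 listed heart transcription factor genes, 10 were the nearest gene of 16 summits, with a median score of 11.8, where 483 of all 21779 protein-coding genes (2.22%) were nearest to a member. Of the 16, 3 were above 33.3, the median of all nuclear summits. The summit at 1700113A16Rik, 5649 bp from Mef2d, had 82.3, the summit at Crnde, beside Irx5, had 69.2, and the summit at 5930403L14Rik, inside Prdm16, had 39.2. Gata5, a zinc finger factor of the early heart, was nearest to 3 summits: scores of 19.2 and 8.42 in reach of both B230312C02Rik and Mir1a-1hg, 50818 and 50260 bp away, and 8.33 at Gata5os. Mir1a-1hg is the host gene of miR-1, a microRNA of heart and skeletal muscle. Meis1 had 15.4 and 13.8, Zeb2 12.4 at Zeb2os, Hand2 11.2 at Hdnr, 29470 bp away, and Sox4 11.0, 8.68 and 6.67. Nkx2-5 (6.03, 5480 bp) and Mef2c (4.51, 73744 bp, at C130071C03Rik, which also holds a miR-9 gene) were lowest. So 13 of the 16 were below the median of all lncRNA summits.

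Among 32 listed genes of the Sin3 complex and its partners, 5 were nearest to 6 summits, with a median score of 100, beside the same 2.22% of all protein-coding genes. Beside the summit of score 313 near Foxk1, there were 130 at 3110056K07Rik in Arid4a, a Sin3-associated subunit, and 72.7 at 3010003L21Rik in Sinhcaf, another subunit. The lncRNA gene 2700012I20Rik, inside Sin3a, the scaffold of the complex, had 128 at its 5′ side and 28.0 at its 3′ side, 306 and 802 bp from a listed Sin3a start. Tet1, a DNA demethylase known to bind Sin3a, had 5.96 at Gm51805. With 6 summits, 3 of them by a listed protein-coding start, these values describe single places.

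The lncRNA genes with several member summits and the highest scores were 4930404I05Rik (199 and 99.3, 595 bp apart), 4833417C18Rik (155, 6.91 and 5.53), 2700012I20Rik, 4930577N17Rik (123 and 50.3, in Elf2), Gm33409 (121 and 17.0, in Pdpk1) and Zbtb11os1 (114 and 14.9). Summits of one gene thus differed widely in score. Chaserr, which in mouse holds down its neighbour Chd2, was singled out after its values were seen as the gene with 4. Its summits scored 54.9 at 200 bp inside its 5′ end, 7.77 at 678 bp before it, and 13.5 and 7.27 at its 3′ end. That end lies inside Chd2, for which no start is listed, so whether a Chd2 start was in reach could not be checked. Another summit lay within 1000 bp of 31.2% of the 573 (interval 27.6 to 35.1) and of 28.7% of the other nuclear summits.

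The members farthest from any protein-coding boundary were the pair at Gm19744, deep inside Tenm3 (618002 and 617431 bp, scores 27.1 and 5.38), the summit at Rmst, 520248 bp from Nedd1, and the summit at Gm32703, inside Pde4d (514849 bp, score 9.01). Chromosome 11 held the most members, 57, at 6.63% of its lncRNA genes, and also the most summits, 1276. Its members were 4.47% of its summits, against 3.85% over all nuclear summits. Chromosome X held 10 members of 420 summits (2.38%), and chromosome Y, with 30 lncRNA genes, had no summit at all. Chromosome 5 had the highest share of its own summits among the members, 48 of 948 (5.06%). The lncRNA genes with a member had a median length of 6727 bp, against 8456 bp over all lncRNA genes.

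At the limits of the rule, the members just inside 1000 bp of an lncRNA boundary were at C230034O21Rik (998 bp, score 64.2), Gm42008 (992 bp, 5.79) and Gm35025 (990 bp, 126), and the summits just outside were at 4921507G05Rik (1002 bp, 16.0), Gm5144 (1003 bp, 7.25) and Gm38708 (1004 bp, 4.75). At the limit on protein-coding boundaries, the nearest members were at Gm27042 (1002 bp from Aldh18a1, 5.04), Gm31288 (1006 bp from Fgfr1, 29.0) and 4930488L21Rik (1010 bp from Gnao1, 25.6). The summits just too near were at Gm32816 (983 bp from Tial1, 53.5), 4930583K01Rik (982 bp from Smg1, 49.3) and Ggnbp2os (969 bp from Ggnbp2, 89.0).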

How the data were processed

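Hearts of E12.5 C57BL/6 mouse embryos gave 1 Sap130 ChIP library (2 µg antibody) and 1 input library. The submitters' processing notes name Bowtie 1.1.2, MACS2 2.1.0.20140616 and build GRCm38 (mm10); the sources used here give neither thresholds nor the handling of duplicates. The list the authors deposited holds 14886 entries, each with a −log10 score of either p-values or q-values, with no statement of which. The input acted through that peak calling alone, and neither library's depth is known.

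Of these entries, 5 were mitochondrial and were left out. Gene boundaries came from a RefSeq table of GRCm38.p6 (12639 lncRNA and 21779 protein-coding genes). Left out were 394 genes that were mitochondrial, had no position, or, away from chromosome Y, began before 3 Mb, as scaffolds do. Strand and starts came from the RefSeq promoter windows, which are not complete: they cover 9533 lncRNA genes (404 of the 510 with a member) and 17492 protein-coding genes, and chromosome 18 starts were not analysed here. A summit in reach of several lncRNA genes was given to the nearest boundary. Shares carry Wilson 95% intervals and medians order-statistic 95% intervals. With 1 library no test across samples was possible.

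Named are the lncRNA genes of the 15 highest and 4 lowest scores and those at the limits of the rule. Up to 6 with several summits are named, as are listed lncRNA genes with a summit. Up to 2 per list without one are named, plus Airn, Ftx and Sox2ot. Members nearest to listed heart factor or Sin3 genes, and the 3 farthest from protein-coding boundaries, are named too. One result that the rule takes is not reported here. Members and lists were chosen with earlier results of these data known. Placement was tested on simulated summits. Alternatives were other windows, distances and score limits, merging of summits within 500 bp, curated genes, gene bodies and 5′ ends alone. Computation used matplotlib 3.10.9, pandas 2.3.3, scipy 1.17.1 and numpy 2.4.6 under Python 3.11.15.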

Additional observations from a re-analysis of the deposited data

How the results depend on the processing

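Of the values reported, 5 were followed through the alternatives: the number of summits (573) and of lncRNA genes (510), the median score (22.4), the share inside the lncRNA gene (49.7%) and the median distance to a protein-coding boundary (6285 bp). With a window of 500 bp, with summits within 500 bp merged, or with 5′ boundaries alone, none of the 5 moved beyond its interval or, for counts, by more than 1.5 times. A window of 2500 bp gave 876 summits, a median score of 18.9, 43.5% inside and 4756.5 bp. A distance of more than 500 bp from protein-coding boundaries gave 2293 bp. More than 2500 bp gave 54.8% inside and 13202 bp, and more than 5000 bp gave 310 summits, 283 genes, 55.2% and 23789.5 bp. The condition on protein-coding boundaries itself sets that distance. Summits at or above the median score numbered 207 at 199 genes (median score 63.6, 44.9% inside, 4788 bp), and those at or above the upper quartile 100 at 100 genes (89.3, 45%, 4739.5 bp). Curated lncRNA genes alone gave 321 summits at 275 genes, with 54.5% inside, and adding gene bodies lowered the median score to 17.7; the share inside was not computed there. An alternative chosen after seeing the data, more than 1000 bp from every listed protein-coding start as well, left a median score of 16.5, 59.7% inside and 8006.5 bp; by construction it removes the 191 summits by an internal start. The strand of 114 members and the starts of some genes were not listed, which limits statements on 5′ ends. No paired analysis was possible because there was 1 ChIP and 1 input library. Unknown depth limits what a missing summit means.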
